A study of Mus musculus with 13 samples.

Results

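A group of 10 genes of muscle protein breakdown and its control was followed in mouse heart: 5 ubiquitin ligases or ligase subunits (Trim63, Fbxo32, Fbxo30, Fbxo31 and Cblb), 3 FoxO transcription factors (Foxo1, Foxo3 and Foxo4), and 2 genes that act beside or below them (Klf15 and Gadd45a). They were found as every array probe whose gene symbol, current or older, was one of these 10 names. This gave 21 of the 45281 probes, for 10 of the 19057 gene symbols on the array. Of the 21, 16 probes of 9 genes were detected, by a detection p under 0.05 in the deposited table, on 3 or more arrays and were tested among the 18693 probes that met the same condition. Foxo4 had 1 probe, which was detected on 0 of 13 arrays, so its signal of 4.40 to 4.81 on the normalized log2 scale is at background in every group.

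The study used 13 male C57BL/6 mice aged 8-10 weeks, with 1 single-colour Illumina BeadChip per heart. By intraperitoneal injection, 3 mice were given sAcvR2B-Fc and, 48 hours later, doxorubicin, 5 were given doxorubicin alone and 5 control mice PBS. The last injection, of doxorubicin or PBS, preceded collection of the heart by 20 hours. sAcvR2B-Fc is a soluble activin receptor 2B joined to an antibody Fc part, which binds myostatin, activins and related ligands, and doxorubicin is an anthracycline cancer drug that is toxic to the heart. Mice given sAcvR2B-Fc without doxorubicin were not analysed here.

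Muscle protein is broken down largely by the proteasome, which degrades proteins that a ubiquitin ligase has tagged. In skeletal muscle and heart, FoxO factors enter the nucleus when insulin and Akt signalling is low and switch on the ligase genes Trim63 and Fbxo32, often called atrogenes. Glucocorticoids induce Klf15 and Trim63 through their receptor, and myostatin and activin, the ligands that sAcvR2B-Fc traps, signal through SMAD factors and are known to lower Akt activity in muscle. The comparisons therefore ask whether doxorubicin changed these genes in the heart, and whether their levels differed when activin receptor ligands had been trapped beforehand.

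The promoter of Trim63 is shown because it carries the motifs by which FoxO factors and glucocorticoids are known to act on this gene, and that of Klf15 because it had as many matches as Trim63, 3, all to another motif. Both are RefSeq sequences on GRCm38.p6, each placed around the transcript start that the RefSeq promoter table uses, 5′ to 3′ on the gene's strand, which is the plus strand for both. The Trim63 window is chr4:134314870-134315169 and spans the start of its locus (chr4:134315120-134329629). The Klf15 window, chr6:90462326-90462625, lies inside its locus (chr6:90461043-90491803), so the region before the outermost start of Klf15 was not searched. In Trim63 the capitals mark a glucocorticoid element at bases 43 to 55, formed of GNACA and TGTNC with 3 bases between them, joined to the FoxO family site TTGTTTAC at bases 56 to 63. In Klf15 the capitals mark 3 E-boxes, CACGTG.
Trim63: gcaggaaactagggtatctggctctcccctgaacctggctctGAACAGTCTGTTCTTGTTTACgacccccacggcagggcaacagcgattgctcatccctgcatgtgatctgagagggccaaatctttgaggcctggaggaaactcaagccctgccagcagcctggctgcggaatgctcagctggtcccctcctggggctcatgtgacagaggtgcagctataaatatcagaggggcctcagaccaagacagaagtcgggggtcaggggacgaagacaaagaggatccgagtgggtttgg
Klf15: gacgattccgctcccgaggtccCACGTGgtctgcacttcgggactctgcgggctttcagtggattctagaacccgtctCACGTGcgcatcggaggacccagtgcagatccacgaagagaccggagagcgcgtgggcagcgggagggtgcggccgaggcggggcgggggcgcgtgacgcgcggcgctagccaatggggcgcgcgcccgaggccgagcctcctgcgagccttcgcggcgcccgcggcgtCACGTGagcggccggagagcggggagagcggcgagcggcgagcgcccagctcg

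On both strands 5 motifs were searched: the FoxO core GTAAACA, the FoxO family site TTGTTTAC, the glucocorticoid element, the SMAD element CAGACA and the E-box CACGTG. The FoxO core overlaps the FoxO family site in Trim63, where it lies on the minus strand at bases 57 to 63. Of 32851 mouse promoters of this length, 0.475% held the glucocorticoid element, 1.23% the FoxO family site, 3.65% the FoxO core, 21% the SMAD element and 7.15% the E-box. The promoter table held 8 of the 10 members. Beside the matches shown, Cblb had 1 SMAD element on its minus strand, and Fbxo30, Fbxo31, Foxo1, Foxo3 and Gadd45a had 0 matches to these letters in their windows. The Fbxo30 and Cblb windows also begin inside their loci.

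The non-normalized table and the series matrix named different arrays for 8 of the 13 samples, and for 6 of these the array fell in another group. Values here follow the non-normalized table, and the members' comparisons are also given under the other names. The arrays further split into 8 on the low side and 5 on the high side of the first principal component over all tested probes, which carried 31% of the variance. On the high side were 2 of 3 doxorubicin + sAcvR2B-Fc arrays (replicates 2 and 3), 1 of 5 doxorubicin arrays (replicate 5) and 2 of 5 PBS arrays (replicates 4 and 5). The files used here hold no slide or scan record, so batches could not be set against this split. Raw brightness did go with it: the median raw signal was 101.5 to 111.4 on high-side arrays and 113.7 to 136.3 on low-side arrays. The part of brightness in the split, and in the differences below that follow it, was not tested. On the second component (18.3% of the variance), by the names used here, PBS arrays lay at 13.3 to 19.9. Doxorubicin replicate 2 lay near them at 11.5, and all other arrays at -27.9 to -1.73. By the series matrix names the PBS arrays ran from -20.3 to 19.9. Which names are right was not tested. Detected probes numbered 15989 to 17939 per array.

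Heart muscle markers were present on every array: 5 of 6 cardiomyocyte markers were tested, and their mean normalized log2 signal lay between 13.06 and 13.46 on doxorubicin + sAcvR2B-Fc arrays, between 13.24 and 13.66 on doxorubicin arrays and between 13.26 and 13.70 on PBS arrays. The median difference of these 5 was -0.04 for doxorubicin against PBS. For doxorubicin + sAcvR2B-Fc it was -0.22 against doxorubicin and -0.30 against PBS, where 0 of the 5 were positive. In each comparison 0 were called, and under the series matrix names the medians were -0.06, 0.17 and 0.22. Of 6 skeletal muscle markers, 5 did not meet the detection condition (Myh4, Myh1, Tnnt3, Actn3 and Tnnc2), and adipocyte and T and B cell lists had 0 tested markers. Neutrophil markers differed between the groups as named here: the mean of the 4 tested stood at 6.47 to 6.57 on doxorubicin + sAcvR2B-Fc arrays, 6.25 to 7.26 on doxorubicin arrays and 4.70 to 5.36 on PBS arrays. The median difference of these 4 was 1.61 for doxorubicin against PBS and 1.55 for doxorubicin + sAcvR2B-Fc against PBS, with 2 genes called in each, but 0.32 and 0.06 with 0 called under the series matrix names. The mean of 2 erythroid markers ran from 9.76 to 10.64 on doxorubicin + sAcvR2B-Fc arrays, from 9.91 to 11.70 on doxorubicin arrays and from 11.00 to 11.71 on PBS arrays. The part of these shifts in the results below was not tested. In RNA from whole hearts, fewer cells of a type and less RNA per cell cannot be told apart.

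**Figure D1:**
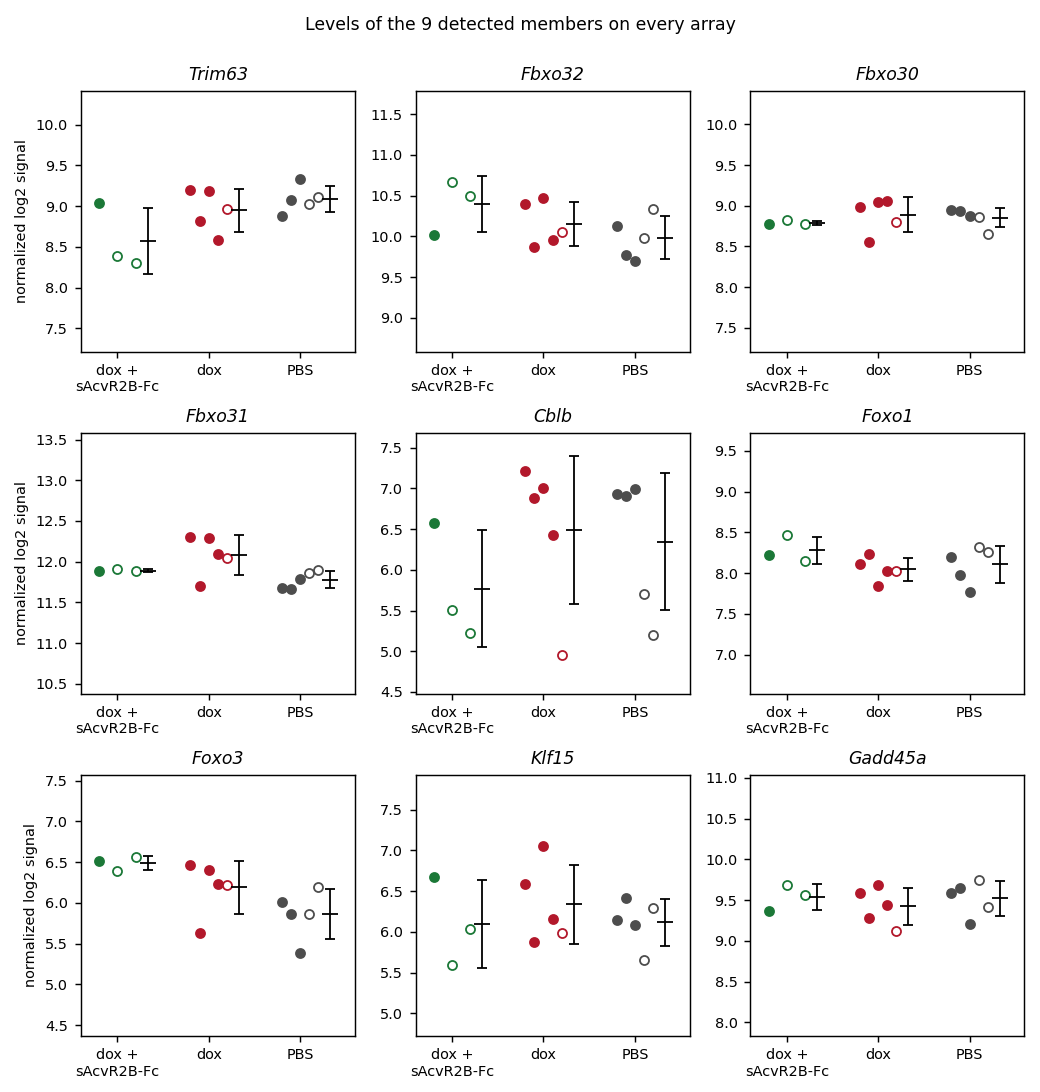
Normalized log2 signal (vertical axis, each panel 3.2 units high) of the 9 detected members on each array, 1 probe per gene, with doxorubicin + sAcvR2B-Fc (n = 3) on the left, doxorubicin (n = 5) in the middle and PBS (n = 5) on the right. Filled points are arrays on the low side of the first principal component and open points those on the high side, with bars for mean ± SD. Foxo3 on the doxorubicin + sAcvR2B-Fc arrays (6.39 to 6.56) lies above all PBS arrays (5.38 to 6.20), and Cblb separates filled from open points.

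After doxorubicin alone, no atrogene or FoxO factor passed the test. Trim63 stood at -0.14 ± 0.16 against PBS and the 3 Fbxo32 probes at 0.16 to 0.19, and the largest differences were those of Foxo3 (0.32 ± 0.17) and Fbxo31 (0.31 ± 0.11, log2 difference ± SE). Limma called 0 of the 16 member probes at an adjusted p under 0.05, against a background of 0.182% of all tested probes. At an unadjusted p under 0.05, 2 member probes were higher and 0 lower, both of Fbxo31, and of all probes 5.34% were higher and 5.64% lower at that level. The median difference over the 16 probes was 0.11, with 10 positive, against 0.00 over all probes, of which 50.1% were positive. With arrays scaled to one median in place of quantiles, the median of all probes moved by 0.12, 74.7% of all probes were positive, and 13 of the 16 member probes were positive.

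Trim63 encodes MuRF1, a RING-type ligase of the sarcomere that tags thick filament proteins. Its signal on the doxorubicin arrays was 9.20, 8.82, 9.18, 8.58 and 8.96, against 8.88, 9.08, 9.33, 9.03 and 9.11 on the PBS arrays. The groups overlapped, with doxorubicin replicates 2 and 4 below all 5 PBS arrays. The ratio was 0.908 (95% interval of the log2 difference -0.48 to 0.20, adjusted p = 0.807). The log2 difference was 0.02 with median scaling and 0.10 under the series matrix names.

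Fbxo32 encodes atrogin-1, the F-box subunit that brings substrates such as calcineurin to an SCF-type ubiquitin ligase. Its brightest probe, ILMN_2873444, read 10.40, 9.87, 10.47, 9.96 and 10.05 after doxorubicin and 10.13, 9.77, 9.70, 9.98 and 10.34 after PBS. The ranges overlapped broadly, and the difference was 0.17 ± 0.17 (interval -0.19 to 0.52, adjusted p = 0.774). The other 2 probes gave 0.16 ± 0.20 and 0.19 ± 0.34. Over the 13 arrays the 3 probes followed each other with correlations of 0.95, 0.81 and 0.80.

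Fbxo31, an F-box protein that has been studied for cyclin D1 turnover after DNA damage, came closest of the members to passing in this comparison. On probe ILMN_2452855 the doxorubicin arrays read 12.30, 11.70, 12.29, 12.09 and 12.04, and the PBS arrays 11.68, 11.66, 11.79, 11.86 and 11.90. Doxorubicin replicate 2 was the exception: the other 4 doxorubicin arrays lay above all 5 PBS arrays. The difference was 1.24-fold (0.31 ± 0.11, interval 0.06 to 0.55, adjusted p = 0.318). Without doxorubicin replicate 2 it was 0.40 and the adjusted p = 0.0499, the single value past the threshold among 1266 member values computed under 27 alternatives. Leaving out that array also raised the number of all probes called from 34 to 387. Under the series matrix names the difference was 0.16.

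The other Fbxo31 probes differed from each other. ILMN_1252057 stood at 0.24 ± 0.11 (adjusted p = 0.412) and correlated with the brightest probe at 0.73, while ILMN_2687032 stood at 0.06 ± 0.14 and correlated with the other 2 at 0.25 and 0.20. Fbxo30, the subunit known as MUSA1 that is induced in denervated skeletal muscle, had 1 detected probe with 8.56 to 9.06 on doxorubicin arrays and 8.65 to 8.95 on PBS arrays. Its difference was 0.04 ± 0.11, and its interval of -0.19 to 0.27 was the narrowest of the members' brightest probes in this comparison.

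Foxo3 switches on Fbxo32 and autophagy genes in muscle. Of its 3 probes 2 were detected on 0 of 13 arrays, and the third, ILMN_2501865, was dim (raw intensity 126.9 to 227.2) but detected on all 13. It read 6.46, 5.63, 6.41, 6.23 and 6.22 after doxorubicin and 6.01, 5.87, 5.38, 5.87 and 6.20 after PBS. Again doxorubicin replicate 2 was the low one, and the other 4 lay above the highest PBS array. The difference was 0.32 ± 0.17 (interval -0.04 to 0.69, adjusted p = 0.511), and 0.46 without that array (adjusted p = 0.133). Without background correction it was 0.13, and with an offset of 50 it was 0.21. Foxo1, which acts in insulin-controlled metabolism and on Trim63, differed by -0.06 ± 0.12 on its brighter probe, with 7.84 to 8.23 on doxorubicin arrays and 7.77 to 8.32 on PBS arrays. Its dimmer probe was detected on 3 of 5 doxorubicin and 3 of 5 PBS arrays, at -0.15 ± 0.27.

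Klf15, a glucocorticoid-induced factor that turns on branched-chain amino acid breakdown, read 6.59, 5.88, 7.06, 6.16 and 5.99 after doxorubicin and 6.14, 6.42, 6.09, 5.66 and 6.29 after PBS. The doxorubicin arrays spread over more than 1 log2 unit, and the difference was 0.22 ± 0.24 (adjusted p = 0.798). Gadd45a is a stress gene that p53 and ATF4 are known to induce. Its probes stood at -0.10 ± 0.13 and -0.23 ± 0.17, with 9.12 to 9.69 on doxorubicin arrays and 9.21 to 9.75 on PBS arrays for the brighter one. In 15 of the 16 member probes the 95% interval of this comparison lay within a 2-fold change either way, Cblb being the exception.

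**Figure D2:**
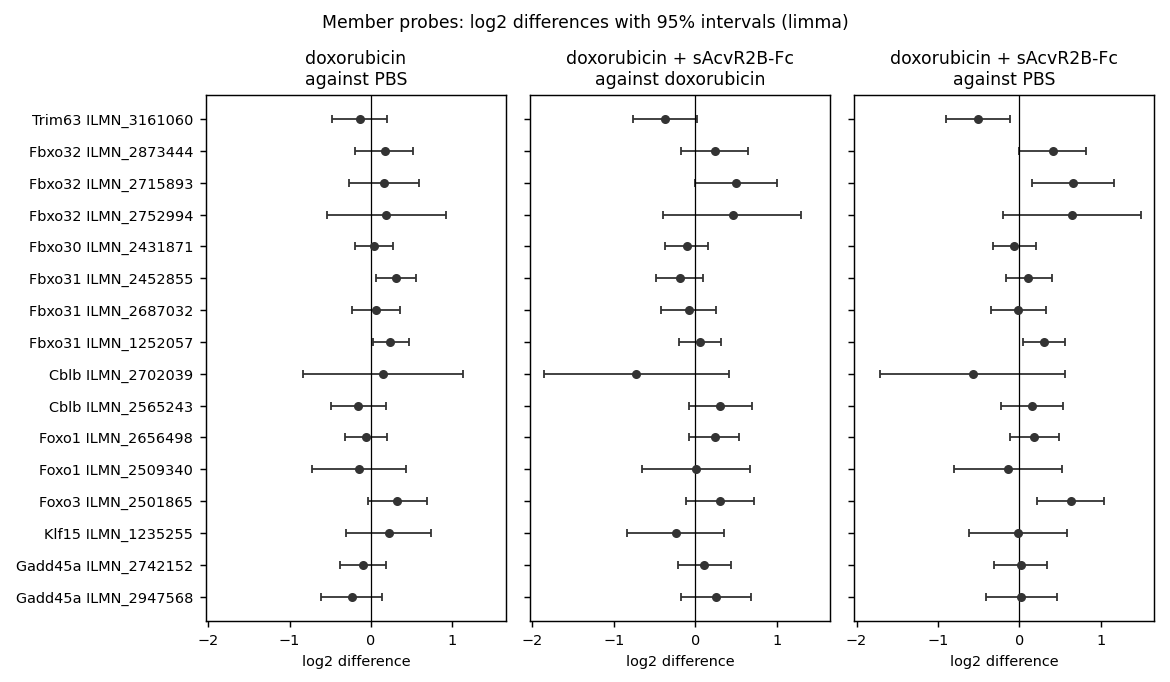
Log2 difference (horizontal axis) of the 16 tested member probes (rows) in the 3 comparisons (panels), with 95% intervals from the limma model. Trim63 and the Fbxo32 probes lie on opposite sides of 0 in all 3 panels, and no probe passed an adjusted p under 0.05.

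Set against doxorubicin alone, hearts of mice given sAcvR2B-Fc before doxorubicin had a Trim63 difference of -0.37 ± 0.18 and Fbxo32 differences of 0.24 to 0.50, none past the test. Limma called 0 of the 16 member probes, with 0.0642% of all probes called. At an unadjusted p under 0.05, 1 member probe was higher and 0 lower, and of all probes 5.82% were higher and 4.99% lower. The median over the 16 probes was 0.09, with 10 positive, and that over all probes 0.02, with 53.5% positive. For 14 of the 16 probes the 95% interval lay within a 2-fold change either way.

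Trim63 read 9.04, 8.39 and 8.30 on the 3 doxorubicin + sAcvR2B-Fc arrays, against 9.20, 8.82, 9.18, 8.58 and 8.96 on the doxorubicin arrays. Replicates 2 and 3 lay below all 5 doxorubicin arrays and replicate 1 lay inside their range. The ratio was 0.773 (log2 interval -0.76 to 0.02, adjusted p = 0.481). Replicates 2 and 3 are also the doxorubicin + sAcvR2B-Fc arrays on the high side of the first component. With the side as a block, added after the data were seen, Trim63 stood at -0.29, and on the low-side arrays, where the sAcvR2B-Fc group has 1 array, at 0.10.

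Fbxo32 probe ILMN_2715893, the single member probe at an unadjusted p under 0.05 here, read 8.50, 9.33 and 9.14 on doxorubicin + sAcvR2B-Fc arrays, against 8.65, 8.19, 8.76, 8.29 and 8.57 on doxorubicin arrays. The same 2 arrays stood apart, now above all doxorubicin arrays. The difference was 1.41-fold (0.50 ± 0.23, adjusted p = 0.461), and the other 2 probes gave 0.24 ± 0.19 and 0.46 ± 0.39. With the side as a block the 1.41-fold difference became 0.29 on the log2 scale, and on low-side arrays 0.03. Under the series matrix names it was -0.29.

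Cblb, a RING ligase that targets the insulin receptor substrate IRS1 in unloaded muscle and restrains T cells, had the widest spread of the members. Probe ILMN_2702039 read 6.58, 5.51 and 5.22 on doxorubicin + sAcvR2B-Fc arrays, 7.21, 6.88, 7.00, 6.43 and 4.95 on doxorubicin arrays, and 6.93, 6.91, 6.99, 5.70 and 5.20 on PBS arrays. The 5 high-side arrays held 4.95 to 5.70 and the 8 low-side arrays 6.43 to 7.21, in every group. On the high-side arrays the probe was near background, with raw intensity of 105.6 to 134.9 and detection p of 0.00962 to 0.11004. It was not detected on doxorubicin replicate 5. Of all tested probes, 7.45% separated the sides without overlap in this way, and the component was computed on the same arrays.

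The Cblb difference between doxorubicin + sAcvR2B-Fc and doxorubicin was -0.73 ± 0.53 (adjusted p = 0.611), and -0.00 with the side as a block. Against PBS it was -0.57 ± 0.53, and -0.16 with the same block. Because this probe separates the sides without overlap, the block takes up that part of its differences by construction. The dimmer Cblb probe ILMN_2565243, detected on 2 of 3 doxorubicin + sAcvR2B-Fc, 1 of 5 doxorubicin and 1 of 5 PBS arrays, followed the first at a correlation of 0.32 and did not separate the sides.

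**Figure D3:**
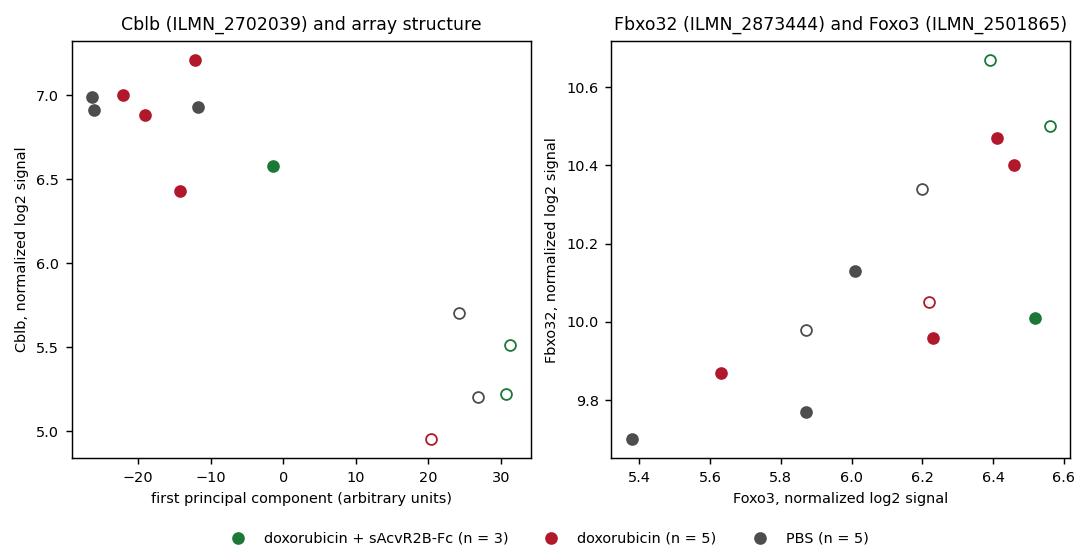
Left, normalized log2 signal of Cblb (vertical axis) against the array's first principal component (horizontal axis, arbitrary units). Right, normalized log2 signal of Fbxo32 (vertical axis) against Foxo3 (horizontal axis). Each point is 1 of 13 arrays, filled on the low and open on the high side of the component. Cblb is at 6.43 to 7.21 on the 8 low-side arrays and at 4.95 to 5.70 on the 5 high-side arrays, and the correlation of Fbxo32 with Foxo3 is 0.77 over all arrays and 0.76 over the filled points.

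In the comparison of doxorubicin + sAcvR2B-Fc with PBS, which joins both treatments, Foxo3 stood at 0.63 ± 0.19, Fbxo32 at 0.41 to 0.66 and Trim63 at -0.51 ± 0.18, none past the test. Limma called 0 of the 16 member probes at an adjusted p under 0.05, with 0.674% of all probes called. At an unadjusted p under 0.05, 3 member probes were higher (Foxo3, Fbxo32 and Fbxo31, 1 probe each) and 1 lower (Trim63), and of all probes 9.54% were higher and 6.89% lower. Over the 16 probes the median was 0.07, with 10 positive, against 0.01 over all probes, with 50.9% positive. With median scaling the median of all probes moved by 0.12 and 13 member probes were positive. This comparison shares its arrays with the other 2, so their differences are not independent.

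Foxo3 read 6.52, 6.39 and 6.56 on doxorubicin + sAcvR2B-Fc arrays, against 6.01, 5.87, 5.38, 5.87 and 6.20 on PBS arrays. It was the single member probe whose groups did not overlap, as was so for 12.6% of all probes. The difference was 1.54-fold (0.63 ± 0.19, interval 0.21 to 1.04, adjusted p = 0.128). It kept its sign with the side of the component as a block (0.59) and on low-side arrays (0.77), where the doxorubicin + sAcvR2B-Fc group has 1 array. Over the leave-one-out fits it ran from 0.51 to 0.71. The size depended on the background step: it was 0.26 without background correction (adjusted p = 0.112) and 0.42 with an offset of 50 (adjusted p = 0.106). Under the series matrix names it was -0.10.

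Trim63 stood at 9.04, 8.39 and 8.30 with doxorubicin + sAcvR2B-Fc and at 8.88, 9.08, 9.33, 9.03 and 9.11 with PBS. Replicate 1 fell inside the PBS range and the other 2 below it, for a ratio of 0.702 (log2 interval -0.90 to -0.12, adjusted p = 0.181). The value was -0.46 with the side as a block and -0.06 on low-side arrays. Under the series matrix names it was 0.31, and over the 7 arrays whose group is not in dispute it was 0.02.

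Fbxo32 probe ILMN_2715893 read 8.50, 9.33 and 9.14 with doxorubicin + sAcvR2B-Fc, against 8.42, 8.05, 7.90, 8.35 and 8.93 with PBS, a difference of 1.58-fold (0.66 ± 0.23, adjusted p = 0.172). Its brightest probe stood at 0.41 ± 0.19 (adjusted p = 0.308) and its dimmest at 0.64 ± 0.39. The 3 probes thus had the same sign, and all 3 turned to negative under the series matrix names (-0.25, -0.28 and -0.87). Trim63 and Fbxo32, both FoxO targets, had differences of opposite sign in this comparison under either set of names; whether the 2 differences differ was not tested.

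Fbxo31 probe ILMN_1252057 was at 0.30 ± 0.12 (adjusted p = 0.231), while its brightest probe read 11.88, 11.91 and 11.88 with doxorubicin + sAcvR2B-Fc, at 0.11 ± 0.13 against PBS and -0.19 ± 0.13 against doxorubicin alone. The brighter Foxo1 probe read 8.22, 8.47 and 8.15 on these arrays, at 0.18 ± 0.14 against PBS and 0.24 ± 0.14 against doxorubicin. Fbxo30, Klf15 and the 2 Gadd45a probes lay between -0.07 and 0.02 against PBS. For 12 of the 16 probes the 95% interval against PBS lay within a 2-fold change either way.

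The choice of sample names moved these differences. Under the series matrix names limma called 0 of the 18693 probes in each of the 3 comparisons, with 1.48% of probes at an unadjusted p under 0.05 for doxorubicin against PBS, 3.04% for doxorubicin + sAcvR2B-Fc against doxorubicin and 3.33% for doxorubicin + sAcvR2B-Fc against PBS. Of the 16 member probes, 11, 2 and 4 were positive in these comparisons, in place of 10 in each. Their medians were 0.04, -0.19 and -0.18. Of all probes, 50.9%, 49.6% and 50.3% were positive under those names, with medians of 0.00, -0.00 and 0.00. Probes of the same gene are not independent, and with 1 probe per gene 7, 2 and 3 of the 9 genes were positive.

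Gadd45a was the member furthest from 0 relative to its spread under those names. Probe ILMN_2947568 averaged 8.86 ± 0.28 in doxorubicin + sAcvR2B-Fc (SD, n = 3), 9.35 ± 0.21 in doxorubicin and 9.41 ± 0.16 in PBS (n = 5 each). Its differences were -0.49 ± 0.16 against doxorubicin and -0.55 ± 0.16 against PBS, both with an adjusted p = 1, and under the names used here they were 0.25 ± 0.20 and 0.02 ± 0.20. Over the arrays whose group is not in dispute (1 doxorubicin + sAcvR2B-Fc, 3 doxorubicin and 3 PBS), limma called 0 member probes in the 3 comparisons.

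**Figure D4:**
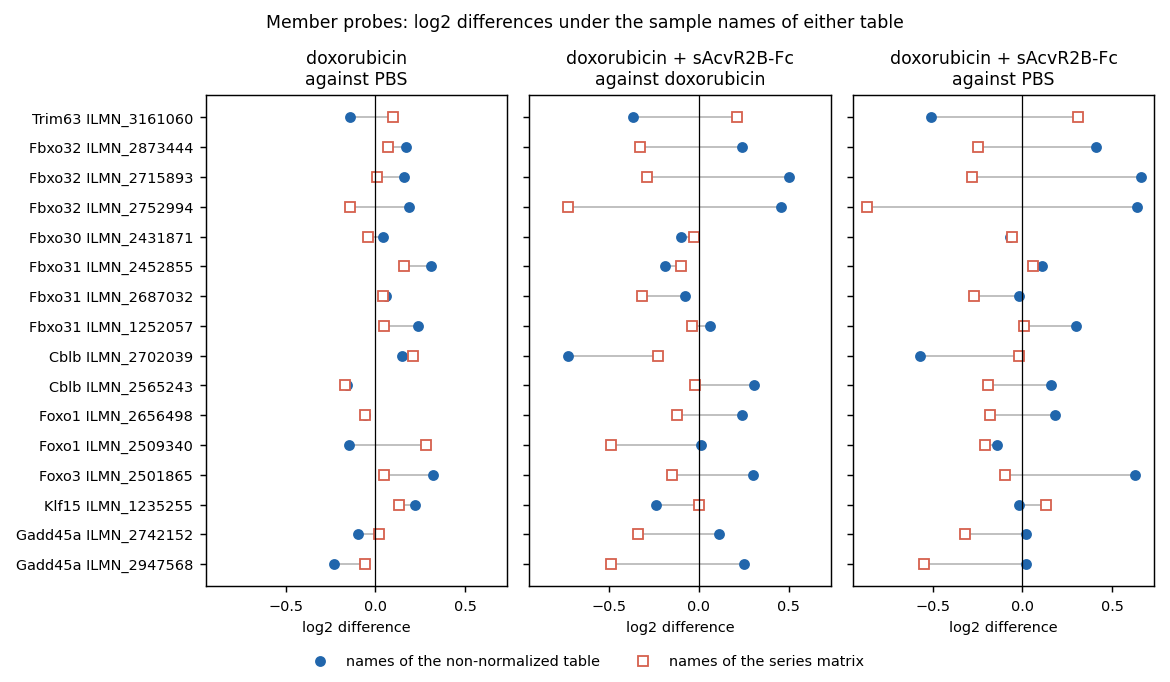
Log2 difference (horizontal axis) of the 16 member probes (rows) in the 3 comparisons (panels), with samples named as in the non-normalized table (filled circles) or as in the series matrix (open squares), joined by a line. The 3 Fbxo32 probes and Foxo3 lie right of 0 by the first names and left of 0 by the second in the middle and right panels, and Trim63 does the reverse.

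Relations between members do not need the group names. Among 36 pairs of the 9 detected genes over 13 arrays, 0 passed after Benjamini-Hochberg adjustment (100000 permutations), and 2 had an unadjusted p under 0.05. Fbxo32 and Foxo3 came closest, with Pearson's r = 0.77 (permutation adjusted p = 0.0824) and Spearman's rho = 0.75 (adjusted p = 0.173). The arrays lowest in Foxo3, doxorubicin replicate 2 at 5.63 and PBS replicate 3 at 5.38, read 9.87 and 9.70 for Fbxo32. The 2 arrays farthest from the median of Fbxo32 were doxorubicin + sAcvR2B-Fc replicates 2 and 3, at 10.67 and 10.50. Without these 2, r was 0.74 (permutation adjusted p = 0.262). Within the 8 low-side arrays r was 0.76, and for deviations from the group means 0.66. Of all tested genes, 1.51% correlated with Fbxo32 at least as strongly in size.

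The second pair was Fbxo31 and Foxo3, with r = 0.59 (permutation adjusted p = 0.309), at 0.69 on the low-side arrays. For Trim63, whose promoter holds the FoxO match shown above, r was -0.39 with Foxo3 and -0.52 with Foxo1 (permutation adjusted p = 0.34 and 0.309). Trim63 and Fbxo32 had r = -0.44 (permutation adjusted p = 0.309), and 0.13 on the 8 low-side arrays. The 5 high-side arrays are too few for a value of their own.

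The genes whose levels were most like each member over the 13 arrays are given as a description, since these arrays share the split and the quantile scale. For Foxo3 they were Xdh (xanthine dehydrogenase, r = 0.92), Nfkbia (the NF-κB inhibitor IκBα, 0.91) and Cebpb (the transcription factor C/EBPβ, 0.91). Fbxo32 was most like Zkscan14 (0.95), Sh3yl1 (0.92) and the cytochrome P450 gene Cyp4f13 (0.89), and Trim63 was most like the amino acid transporter gene Slc36a2 (0.87), Igfbp3 (an IGF-binding protein, 0.87) and the RNA helicase gene Mtrex (0.84).

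Fbxo31 went with the nonsense-mediated decay factor Upf2 (0.90), the kinetochore gene Zwint (0.90) and Armcx5 (0.88), and Foxo1 with Rbm42 (0.92), Rmdn3 (0.89) and Dnajc2 (0.88). The nearest genes to Klf15 were the kinase gene Pim3 (0.87), Zfp97 (0.86) and Wdr46 (0.85), to Gadd45a Washc4 (0.83), Gpr35 (0.82) and Gmeb1 (0.80), and to Fbxo30 the mitochondrial complex I gene ND5 (0.86), Acbd4 (0.83) and Taf3 (0.82). Cblb differed from these: 188 genes reached a correlation of 0.9 with it, led by the coat protein gene Arcn1 (0.98), the small GTPase gene Rab9 (0.98) and Akr1e1 (0.97), while no other member had more than 3 such genes.

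The lists around the members were read with 1 probe per gene, where limma called 0.211% of 10410 genes for doxorubicin against PBS, 0.0768% for doxorubicin + sAcvR2B-Fc against doxorubicin and 0.74% for doxorubicin + sAcvR2B-Fc against PBS. At an unadjusted p under 0.05, 5.62% of these genes were higher and 5.97% lower in the first comparison, 5.6% and 5.09% in the second, and 9.53% and 7.78% in the third. The single list gene that passed in this fit was Sgk1. Sgk1, a glucocorticoid- and insulin-controlled kinase that phosphorylates FoxO factors, rose in doxorubicin + sAcvR2B-Fc against PBS. It read 12.67, 12.90 and 12.95 on doxorubicin + sAcvR2B-Fc arrays, 12.37, 12.18, 12.29, 11.94 and 12.14 on doxorubicin arrays, and 12.12, 11.96, 11.89, 12.27 and 11.91 on PBS arrays.

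Every doxorubicin + sAcvR2B-Fc array lay above every other array for Sgk1. Against the PBS arrays alone, 12.6% of all probes had groups that did not overlap. The difference was 0.81 ± 0.13 against PBS (adjusted p = 0.0138), 0.66 ± 0.13 against doxorubicin (adjusted p = 0.128) and 0.15 ± 0.11 for doxorubicin against PBS (adjusted p = 0.666). The call against PBS was lost without doxorubicin + sAcvR2B-Fc replicate 2 (0.78, adjusted p = 0.0861) or replicate 3 (0.76, adjusted p = 0.0591). With median scaling it was lost too (0.92, adjusted p = 0.147). So it was on the low-side arrays (0.69) and on the arrays of undisputed group (0.68), where the doxorubicin + sAcvR2B-Fc group has 1 array. Under the series matrix names Sgk1 stood at 0.07 (adjusted p = 1). Against doxorubicin, Sgk1 passed without background correction (0.65, adjusted p = 0.0419) and with array weights (0.71, adjusted p = 0.044). Of the 16 other tested regulators of FoxO 0 passed, and the list's medians were -0.04, 0.09 and 0.04 in the order doxorubicin against PBS, doxorubicin + sAcvR2B-Fc against doxorubicin, and doxorubicin + sAcvR2B-Fc against PBS. At an unadjusted p under 0.05, the 17 genes had 0 higher and 3 lower, 4 higher and 0 lower, and 2 higher and 0 lower in that order. The AMP kinase subunit gene Prkaa2 stood at -0.48 ± 0.18 after doxorubicin (adjusted p = 0.316) and at 0.55 ± 0.21 with doxorubicin + sAcvR2B-Fc against doxorubicin (adjusted p = 0.409), which was -0.13 under the series matrix names. The growth factor gene Igf1 was at -0.50 ± 0.21 and its receptor gene Igf1r at -0.35 ± 0.13 after doxorubicin (adjusted p = 0.373 and 0.329), and under the series matrix names they were at -0.38 and -0.03. Pik3r1, the regulatory subunit of the PI3 kinase between that receptor and Akt, was at 0.73 ± 0.19 in doxorubicin + sAcvR2B-Fc against PBS (adjusted p = 0.0784) and at -0.00 under the series matrix names.

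Of 25 tested FoxO target genes limma called 0 in each comparison, while at an unadjusted p under 0.05 it had 2 higher and 0 lower, 0 higher and 2 lower, and 4 higher and 0 lower in the same order. Their medians were 0.07, 0.02 and 0.06. Ddit4, which restrains mTORC1 and is also induced by p53 and by glucocorticoids, was at 1.03 ± 0.25 for doxorubicin against PBS (adjusted p = 0.135) and at 0.94 ± 0.29 for doxorubicin + sAcvR2B-Fc against PBS (adjusted p = 0.126). The first passed with array weights (1.13, adjusted p = 0.0387) and the second with the side of the component as a block (1.10, adjusted p = 0.0325), and under the series matrix names they were 0.34 and 0.30. The catalase gene Cat was at -0.56 ± 0.21 in doxorubicin + sAcvR2B-Fc against doxorubicin (adjusted p = 0.415), and at -0.11 under the series matrix names.

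Among 19 other muscle ubiquitin ligases and deubiquitinases 0 were called in each comparison, with medians of -0.05, 0.03 and -0.02. At an unadjusted p under 0.05, 1 was higher for doxorubicin against PBS and 1 for doxorubicin + sAcvR2B-Fc against PBS, in both cases Mdm2, the ligase of p53 (0.40 ± 0.16 and 0.49 ± 0.18, adjusted p = 0.349 and 0.19). The first was 0.55 without doxorubicin replicate 2 (adjusted p = 0.0301), where 387 of all probes were called in place of 34. Under the series matrix names the Mdm2 differences were 0.08 and 0.10. Of 26 proteasome subunit genes 0 were called, and their medians were 0.06, -0.03 and 0.04. At an unadjusted p under 0.05 they had 2 higher and 1 lower, 1 higher and 0 lower, and 2 higher and 0 lower. After doxorubicin 19 of the 26 were positive. Psmb2, a subunit of the proteasome core, had the smallest p after doxorubicin (-0.27 ± 0.09, adjusted p = 0.257), and was -0.12 under the series matrix names.

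Breakdown of branched-chain amino acids and proline, which Klf15 is known to promote, was represented by 12 tested genes. Limma called 0 of them, 2, 1 and 2 were higher at an unadjusted p under 0.05, and the medians were 0.02, 0.07 and 0.06. The aminotransferase gene Bcat2 was at 0.60 ± 0.21 in doxorubicin + sAcvR2B-Fc against doxorubicin (adjusted p = 0.394), Bckdk, the kinase that inhibits the branched-chain dehydrogenase, at 0.36 ± 0.10 in doxorubicin + sAcvR2B-Fc against PBS (adjusted p = 0.0974), and the proline oxidase gene Prodh at 0.48 ± 0.19 in doxorubicin against PBS (adjusted p = 0.366). Without background correction Bckdk passed (0.32, adjusted p = 0.0322). By the series matrix names Bcat2 was at -0.07, Bckdk at 0.10 and Prodh at 0.00.

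Of 11 tested genes for reported substrates of the ligases 0 were called, with medians of -0.08, 0.03 and -0.00. The calcineurin catalytic subunit gene Ppp3ca was at -0.24 ± 0.10 in doxorubicin against PBS (adjusted p = 0.392), and at -0.01 under the series matrix names. Of 8 tested family relatives 0 were called, with medians of 0.15, 0.10 and 0.37, and 2, 0 and 3 were higher at an unadjusted p under 0.05. Gadd45g, a relative of Gadd45a, was at 0.57 ± 0.21 in doxorubicin against PBS (adjusted p = 0.31). The endothelial and myeloid factor gene Klf2 was at 0.36 ± 0.13 in doxorubicin against PBS (adjusted p = 0.303) and at 0.48 ± 0.15 in doxorubicin + sAcvR2B-Fc against PBS (adjusted p = 0.133). The first was 0.47 without doxorubicin replicate 2 (adjusted p = 0.0327), where 387 of all probes were called in place of 34. Under the series matrix names the differences of Klf2 were 0.12 and 0.11 and that of Gadd45g 0.03.

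**Figure D5:**
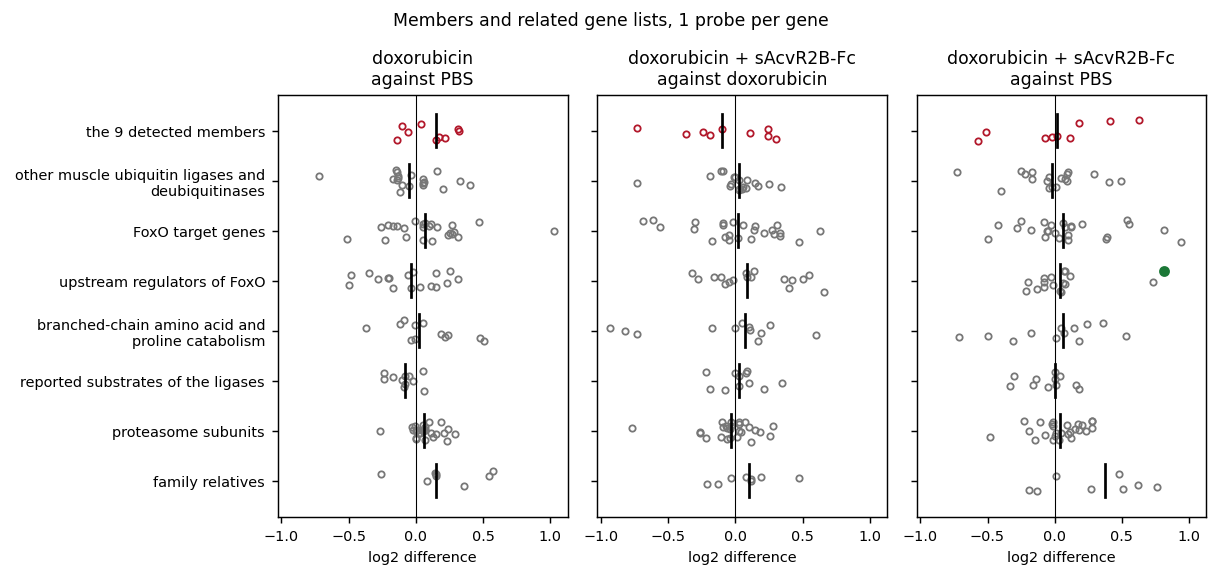
Log2 difference (horizontal axis) of each tested gene in the members and in 7 related lists (rows), 1 probe per gene, in the 3 comparisons (panels). Vertical bars are list medians, open points did not pass an adjusted p under 0.05, and the filled point is Sgk1 (0.81). The points of each list lie on both sides of 0, with medians between -0.10 and 0.37.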

How the data were processed

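Heart RNA of 13 mice was measured on 1 Illumina array each. Per the file headers, the deposited non-normalized table has a signal intensity and a detection p-value for each probe and array. Its lowest intensity per array was 79.2 to 102, which shows no background subtraction. The intensity values in the deposited series matrix were processed further by the authors, by steps not stated in the labels or headers. The matrix served for alternatives, with values under 1 set to 1. Each of its columns matched 1 column of the first table (Spearman correlation of at least 0.999994, next best at most 0.903779), which showed the conflict of names.

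Signals were background-corrected with the detection p-values, quantile-normalized and log2-transformed with neqc (limma 3.58.1, R 4.3.3, offset 16). The 18693 probes detected (p under 0.05) on 3 or more arrays entered 1 fit of the 3 groups (lmFit, eBayes, two-sided, Benjamini-Hochberg), and a probe was called at an adjusted p under 0.05. The fit was tested on simulated data. Probe symbols came from GEO's platform annotation. They were brought up to date by Entrez number against RefSeq genes of GRCm38.p6, where 99.78% of the numbers were found. Of all probes 34885 had 1 symbol, 18 several and 10378 were unnamed here. Levels are not compared between probes. For lists, a gene's passing probe with the highest mean was used. The text names list genes that were called or were among the 3 with the smallest p in a list and comparison. Correlations and motif searches used Python 3.11.15 with scipy 1.17.1.

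Each array was taken as 1 mouse, no pair of arrays was identical, and correlations between arrays were 0.966 to 0.992. Precision is limited by how few arrays there are. The members and lists were chosen with earlier results of these data known.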

Additional observations from a re-analysis of the deposited data

Results flagged for a closer look

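Single arrays stood apart from their group, by Dixon's test for the gap to the nearest array, in 2 of 64 groups of 5 arrays, and chance gives about 1 in 20. For Fbxo31 probe ILMN_2687032, PBS replicate 3 read 8.38, while the other 4 PBS arrays read 8.58 to 8.63, a gap of 0.80 of the group's range against a critical value of 0.71. This probe also followed the other 2 Fbxo31 probes at 0.25 and 0.20. For Gadd45a probe ILMN_2947568, doxorubicin replicate 5 read 8.65, while the other 4 doxorubicin arrays read 9.18 to 9.28, a gap of 0.85 of the range. That array is the doxorubicin array on the high side of the first component, and its Cblb signal of 4.95 was also the lowest of its group. The Cblb probe was not detected on it.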

How the results depend on the processing

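Across 27 alternatives the number of member probes called stayed at 0 in each comparison, except 1 for doxorubicin against PBS without doxorubicin replicate 2. The number of all probes called moved widely. For doxorubicin against PBS, 34 became 63 with an offset of 50, 9 with no filter on dim probes, 165 with array weights, and 0 under the series matrix names, with series matrix values, on arrays of undisputed group and on low-side arrays. It ran from 2 to 387 when 1 array was left out, the extremes being without doxorubicin replicate 1 and replicate 2. For doxorubicin + sAcvR2B-Fc against doxorubicin, 12 became 7 with only the 2 groups compared, 31 with array weights, 6 on low-side arrays, and 0 under the series matrix names, with its values and on arrays of undisputed group. For doxorubicin + sAcvR2B-Fc against PBS, 126 became 338 without background correction, 25 with median scaling, 281 with an offset of 50, 256 for probes detected on all 13 arrays, 301 with array weights, 255 with the side as a block, 6 on low-side arrays, 6 on arrays of undisputed group, and 0 under the series matrix names and with its values. It ran from 14 (without doxorubicin + sAcvR2B-Fc replicate 2) to 353 (without doxorubicin replicate 2) when 1 array was left out. The causes were not tested. Replicate numbers were not treated as pairs of mice in the main fit. Same-numbered deviations correlated between -0.27 and 0.39, and not every array correlated best with its own number. The replicate block gave 4, 21 and 213 calls with 0 members. As the numbers are themselves in dispute, these values cannot decide whether mice were paired. Pairs of members called stayed at 0 in the 3 alternatives run. The side of the component as a block and the low-side arrays alone were chosen after seeing the data. Low signal limits Foxo4, Foxo3, Klf15, Cblb and the dimmer Foxo1 probe, and 3 sAcvR2B-Fc arrays limit both comparisons that use them.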
